A study of Mus musculus with 12 samples.

Results

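The genes described here are 41 genes of the lysosome and of autophagy, listed by symbol: 8 peptidases, 7 glycosidases, 5 proteins of lipid handling, 5 proteins of the lysosomal membrane, 5 subunits of the proton pump, the regulator Tfeb, and 10 genes of autophagosome formation and cargo capture. They are listed by name and function, though with earlier results of these data known. Measured signal entered the choice of 1 probe set per gene. Of the 41, 40 had at least 1 probe set assigned to that gene alone, and all 40 passed the filter on low signal, among 14645 genes tested of 18193 with such a probe set. Cd63, a membrane protein of late endosomes, was not analysed here. Each gene was read from its brightest probe set, and 31 of the 40 had more than 1.

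The samples were prostate epithelial cells of C57BL/6 male mice, 8 weeks old at the start, that were either castrated by removal of the testes or left intact and were taken 4 weeks later. From dissociated prostate tissue 2 fractions were sorted by flow cytometry. Luminal cells were negative for the lineage markers (Lin-), EpCAM+ and low for CD49f (integrin alpha-6), and basal cells were Lin-, EpCAM+ and high for CD49f. Each cell type from intact and from castrated mice made a group, 4 groups in all with 3 arrays in each, said to be biological replicates from 3 sets of mice; how many mice a set held is not given in the sources used here. The values are Affymetrix signals on a linear scale, made with the MAS5 algorithm after amplification of a small amount of RNA. Differences are given as log2 of the signal plus 16, with the standard error (SE) from the fit of limma, a linear model with moderated variances, over 3 arrays a group. A gene passed where its p, adjusted over all genes tested by the Benjamini-Hochberg method, was under 0.05.

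Lysosomes are acidic organelles in which hydrolases break down proteins, sugar chains and lipids delivered by endocytosis or autophagy. The vacuolar proton pump, an ATPase of a membrane sector and a cytosolic sector, acidifies them, and glycosylated membrane proteins such as LAMP1 line their wall. In autophagy, the ULK1 and Beclin 1 complexes start a membrane that ATG5, ATG7 and ATG12 help to coat with ATG8-family proteins, and receptors such as p62 (Sqstm1) bring cargo to it. The transcription factor TFEB binds an E-box-like element in the promoters of many lysosomal genes. Prostate luminal cells secrete into the gland's ducts and depend on androgens for their bulk, so that the gland shrinks after castration, while basal cells lie beneath them on the basement membrane.

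The array-wide facts were as follows. Median signal per array was between 57.7 and 99.95, and arrays of a group correlated at 0.863 to 0.967. The 3'/5' signal ratio of Gapdh ran from 4.18 to 8.70 and that of Actb from 0.78 to 1.11. Markers of the 2 cell types went with the labels for the most part. In each state 8 of 9 luminal markers tested were higher and all 9 basal markers lower in luminal cells. Krt5 was at 15238 to 31827 on basal and 5.89 to 489 on luminal arrays, and Krt8 at 10950.0 to 19293 and 21538 to 28991. Itga6, the gene of CD49f, was at 8153 to 11517 and 3075 to 6271. The luminal marker Krt18 overlapped in castrated mice, at 33233 to 47342 on basal and 28227 to 40003 on luminal arrays. Markers of other cell types and of the seminal vesicle differed between groups. The summed signal of 9 fibroblast genes (of 9 listed) was 7851 to 14242 in intact luminal, 754 to 978 in castrated luminal, 40259 to 51343 in intact basal and 23932 to 29467 in castrated basal cells. Most of the castrated basal sum was Dcn, at 19696 to 22817 on intact and 19296 to 25683 on castrated basal arrays. Sparc went from 12407 to 16614 on intact to 390 to 1538 on castrated basal arrays. In basal cells 4 of the 9 genes passed as lower after castration and 0 as higher. In castrated luminal cells 3 of them, Col1a1, Sparc and Pdgfra, were under the 40th percentile of signal on all 3 arrays. The sum over 6 seminal vesicle secretory genes (of 7 listed) was 238651 to 394826 in intact luminal cells against at most 42866 in the other groups. The 40 genes varied less between arrays of a group than genes at large: the median SD of log2 signal was 0.33 against 0.58 in intact luminal, 0.23 against 0.32 in castrated luminal, 0.37 against 0.61 in intact basal and 0.38 against 0.61 in castrated basal cells. Because RNA was measured from many cells together, a lower share of expressing cells and less RNA per cell cannot be told apart in any comparison below.

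The promoters of these genes were searched for the E-box-like element named above. The core of the element that TFEB binds is the hexamer CACGTG, which reads the same on both strands. RefSeq windows of GRCm38.p6, from 250 bases before to 50 after the transcription start, were found for 32 of the 40 genes. The hexamer stood in 12 of them (37.5%), against 11.0% of the 11725 tested genes with a window and 7.15% of all 32851 windows. The longer TCACGTGA, which contains the hexamer, stood in 6 of the 32 (18.8%) against 1.88% of tested genes with a window. The 7 stretches below hold hexamers that lie before the start. Of them, 5 belong to genes that differed between luminal and basal cells (Lamp1, Ctsd, Glb1, Gaa and Ctsl). The other 2 belong to genes with more than 1 such hexamer that did not pass (Mcoln1 and Gla). The stretches are written 5′ to 3′ in the direction of the gene, with the hexamer in capitals.
Lamp1, chr8:13159083-13159160, plus strand: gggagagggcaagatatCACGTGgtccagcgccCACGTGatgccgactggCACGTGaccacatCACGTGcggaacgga
Ctsd, chr7:142387903-142387942, minus strand: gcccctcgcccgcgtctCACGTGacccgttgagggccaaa
Glb1, chr9:114401013-114401052, plus strand: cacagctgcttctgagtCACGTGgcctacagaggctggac
Gaa, chr11:119267806-119267845, plus strand: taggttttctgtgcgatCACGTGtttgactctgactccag
Ctsl, chr13:64370734-64370770, minus strand: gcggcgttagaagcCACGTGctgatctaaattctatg
Mcoln1, chr8:3500431-3500496, plus strand: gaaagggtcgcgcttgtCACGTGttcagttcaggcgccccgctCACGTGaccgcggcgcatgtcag
Gla, chrX:134601177-134601249, minus strand: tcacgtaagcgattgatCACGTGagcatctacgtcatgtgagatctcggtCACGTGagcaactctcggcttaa

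Lamp1 held 4 copies, between 61 and 15 bases before its start, the most among the 12 genes. The single copies in Glb1 and Gaa began 48 and 140 bases before the start, that of Ctsl lay 236 bases before it, and Ctsd had a copy at 98 bases and another at 245. The other genes with the hexamer were Ctsa, Atp6v0d1, Atp6v1a, Atg5 and Atg7. Of these, only Atp6v0d1 differed between the cell types, in intact mice, and its hexamer did not lie wholly before the start. A match describes these letters only and shows no binding. Of the 12 genes with it, 5 were higher and 1 lower in intact luminal than basal cells, with a median log2 difference of 0.66, and of the 20 without it 8 were higher and 1 lower, with a median of 0.74.

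The comparison of the cell types held most of the calls. In intact mice, 14 of the 40 genes (35.0%) were higher in luminal than in basal cells and 3 were lower, while 19.5% of all genes tested passed, 11.0% higher and 8.45% lower. In castrated mice 14 were again higher and 2 lower, against 11.2% and 7.22% of all genes (18.4% in all). The median log2 difference, luminal minus basal, was 0.70 in intact and 0.73 in castrated mice, and 0.07 and 0.08 over all genes tested. In each state 31 of the 40 differences were above 0. Every luminal array lay above every basal array for 18 genes in intact mice and 21 in castrated mice, as it did for 18.0% and 23.6% of all genes, and below for 3 and 2, as for 14.0% and 17.5%. In both states 10 genes passed as higher in luminal cells: Ctsh, Ctsd, Hexa, Man2b1, Glb1, Neu1, Npc2, Ppt1, Lamp1 and Sqstm1. Ctsl and Scarb2 passed as lower in luminal cells in both. Intact luminal cells had the highest group mean for 22 genes (55.0%, against 29.4% of all genes) and castrated basal cells the lowest for 19 (against 29.6% of all genes). The lysosomal genes carried most of the calls: 12 of 29 were higher and 2 lower in intact mice, and 13 and 2 in castrated mice. Of the 10 autophagy genes without Tfeb, 2 were higher and 1 lower in intact mice, and 1 was higher in castrated mice. Leaving out castrated luminal array 1, 2 or 3 gave 10, 7 and 11 calls in place of 16, and leaving out castrated basal array 2 gave 11, while the intact count of 17 ran from 13 to 18. Without the trend of variance on signal in the fit, 11 and 10 passed; the calls lost were those of Hexa, Gabarap and Map1lc3a in intact mice, Ctsd, Glb1 and Atp6v1b2 in castrated mice, and Npc2, Lamp1 and Sqstm1 in both. On arrays centred on their median 9 passed in castrated mice, without Ctsd, Glb1, Npc2, Atp6v1b2, Atp6v1h, Atp6ap1 and Sqstm1. A gene that passed in 1 state only was not thereby shown to differ between the states, which the interaction test given further down addresses. The fibroblast and seminal vesicle markers differed between the compared cells as given above, and their part in these differences was not tested.

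**Figure D1:**
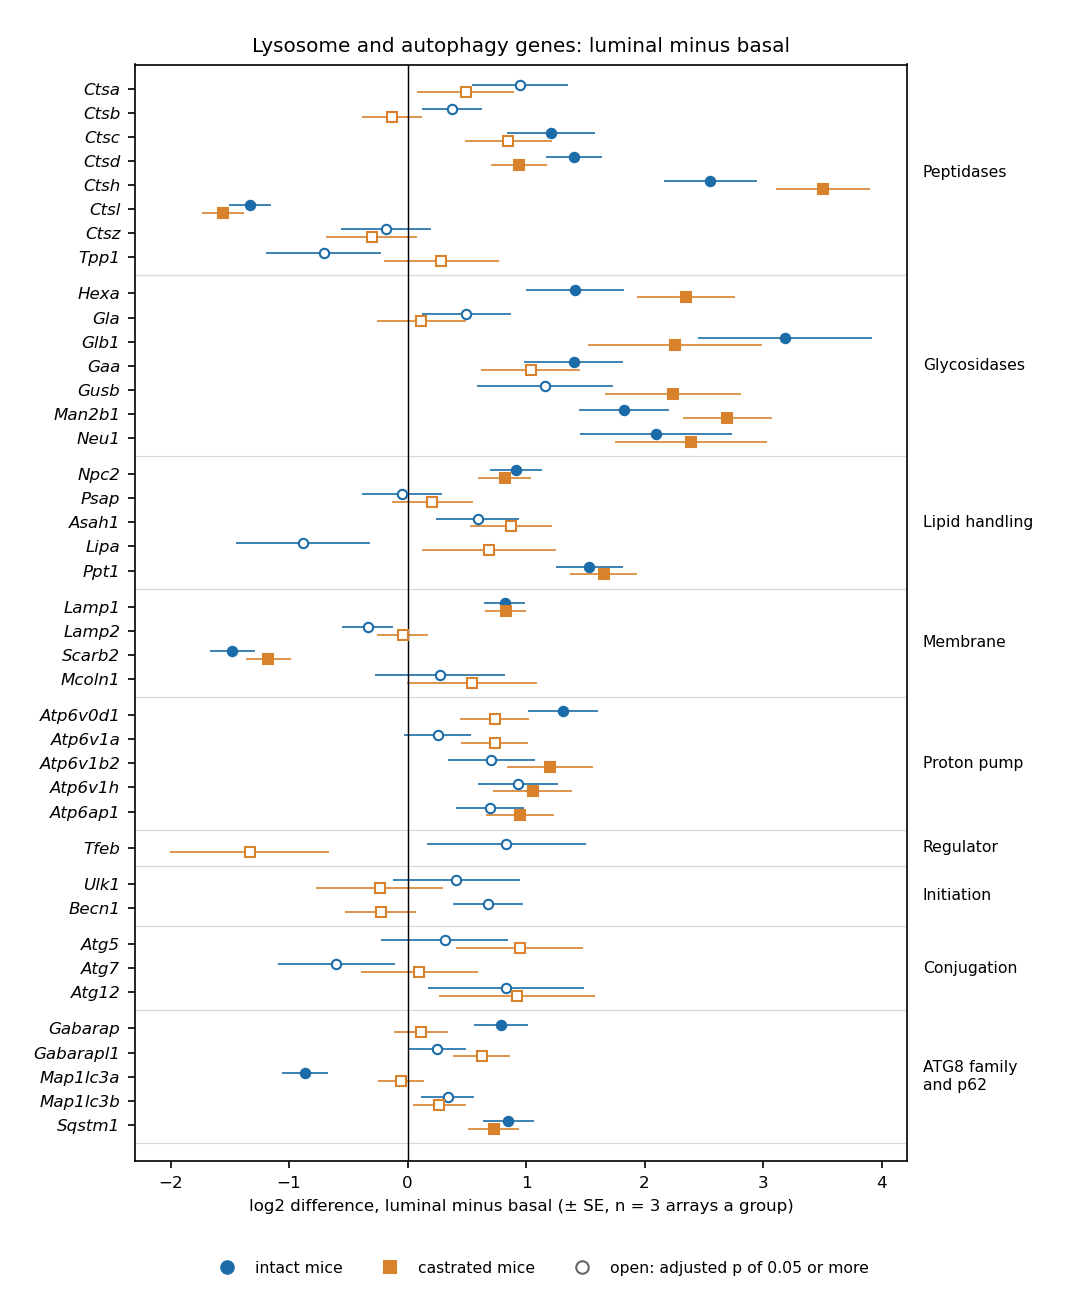
Luminal minus basal difference in log2(signal + 16) for each of the 40 genes, ordered by function, with circles for intact and squares for castrated mice, bars of ± 1 SE and open symbols where the adjusted p was 0.05 or more. Most symbols lie to the right of 0, all 7 glycosidases and all 5 pump subunits in both states, while Ctsl and Scarb2 lie to the left.

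Among the 8 peptidases, 3 were higher and 1 lower in intact luminal than basal cells, and 2 were higher and 1 lower after castration. Cathepsin H (Ctsh), a cysteine protease that trims peptides from their amino end, had signals of 1328, 1138 and 845 in intact and 5111, 5382 and 5586 in castrated luminal cells, and 238, 139 and 151 in intact and 325, 377 and 774 in castrated basal cells. The 4 groups did not overlap: castrated luminal cells were highest and intact basal cells lowest. The luminal minus basal difference was 2.56 ± 0.39 in intact mice (adjusted p = 2.00e-04) and 3.50 ± 0.39 in castrated mice (adjusted p = 9.08e-06), a fold of 5.88 and 11.4. A second probe set of Ctsh gave 1.97 and 3.40.

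Cathepsin L (Ctsl), an endopeptidase, ran the other way. Its signals were 8373, 8674 and 6263 in intact and 10397, 11170.4 and 8501 in castrated luminal cells, and 18066, 18752 and 21416 in intact and 27576, 25703 and 35379 in castrated basal cells. Every basal array lay above every luminal array. It was lower in luminal cells by a log2 difference of -1.33 ± 0.18 in intact (adjusted p = 4.93e-05) and -1.55 ± 0.18 in castrated mice (adjusted p = 1.03e-05).

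Cathepsin D (Ctsd), the main aspartic protease of lysosomes, gave signals of 11369, 11178 and 12182 in intact and 7825, 9229 and 7439 in castrated luminal cells, and 3994, 3686 and 5608 in intact and 3312, 3772 and 6028 in castrated basal cells. Luminal arrays lay above basal arrays in both states, and intact above castrated luminal arrays. The difference between cell types was 1.41 ± 0.23, adjusted p = 4.17e-04 in intact and 0.94 ± 0.23, adjusted p = 0.00903 in castrated mice. The castrated call was lost without castrated luminal array 2 (adjusted p = 0.0520).

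Cathepsin C (Ctsc), which activates granule proteases, was at 1151, 1338 and 806 on intact luminal and 607, 343 and 453 on intact basal arrays, with no overlap. It passed in intact mice (1.21 ± 0.37, adjusted p = 0.0282) and not in castrated mice (0.85 ± 0.37, adjusted p = 0.125), where arrays did not overlap either. Its call was lost without intact luminal array 1 or 2 or intact basal array 2 or 3 (adjusted p = 0.0521 to 0.109) and in its second probe set (0.177). Ctsb, a widely made cysteine protease, ran from 3627 to 5491 on luminal and 2087 to 5678 on basal arrays and did not pass (0.38 ± 0.25, adjusted p = 0.332 intact, -0.13 ± 0.25, adjusted p = 0.778 castrated). Ctsa, Ctsz and Tpp1 did not pass in either state, with differences from -0.71 (Tpp1, intact) to 0.95 (Ctsa, intact).

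**Figure D2:**
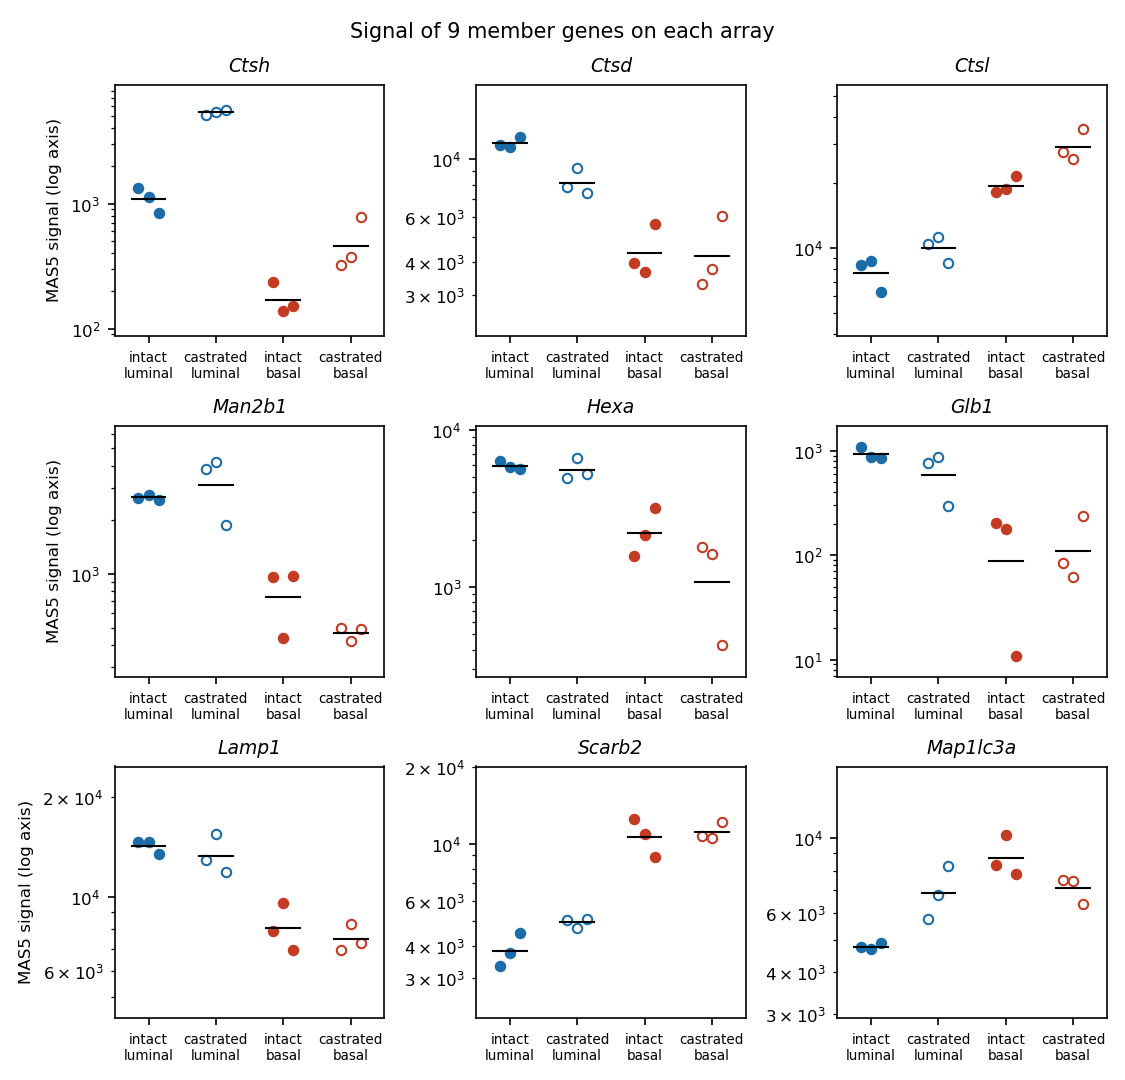
Signal on each of the 12 arrays (log axis) for 9 genes, with luminal arrays in blue, basal arrays in red, filled symbols for intact and open symbols for castrated mice, and a bar at the group mean on the log2(signal + 16) scale. Ctsh is highest in castrated luminal cells, Ctsl, Scarb2 and, in intact mice, Map1lc3a are higher in basal cells, and the other genes are higher in luminal cells.

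The glycosidases, which take sugars off glycoproteins, glycolipids and glycogen, were higher in luminal cells for the most part. Of 7, 5 passed as higher in intact and 5 in castrated mice, none was lower, and the median difference was 1.41 and 2.25. The share higher was 71.4% in each state, against 11.0% of all genes in intact and 11.2% in castrated mice. Of all genes, 8.45% and 7.22% were lower. The 5 intact calls became 2 without intact luminal array 2 and 3 without intact luminal array 1 or intact basal array 1 or 2, and the 5 castrated calls became 2 without castrated luminal array 2. Lysosomal alpha-mannosidase (Man2b1) had signals of 2657, 2737 and 2588 in intact and 3857, 4191 and 1876 in castrated luminal cells, and 952, 436 and 969 in intact and 494, 422 and 489 in castrated basal cells. Every luminal array lay above every basal one. It differed by 1.82 ± 0.38, adjusted p = 0.00242 in intact and 2.70 ± 0.38, adjusted p = 8.09e-05 in castrated mice. A dimmer second probe set gave -0.04 and -1.14, opposite in sign, so that the direction of Man2b1 rests on the brighter one.

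Hexa encodes the alpha subunit of beta-hexosaminidase, which breaks down the ganglioside GM2. Its signals were 6283, 5826 and 5626 in intact and 4954, 6649.8 and 5231 in castrated luminal cells, and 1585, 2143 and 3182 in intact and 1791, 1627 and 427 in castrated basal cells. Luminal and basal arrays did not overlap, and castrated basal array 3 was the lowest of the 12. The difference was 1.41 ± 0.41, adjusted p = 0.0234 in intact and 2.35 ± 0.41, adjusted p = 6.64e-04 in castrated mice, and the intact call was lost without intact luminal array 1 or 2 or intact basal array 1 or 2 (adjusted p = 0.0585 to 0.0979).

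Glb1, the lysosomal beta-galactosidase, was at 1093, 882 and 855 in intact and 761, 876 and 297 in castrated luminal cells, and 205, 178 and 10.8 in intact and 84.7, 61.6 and 239.9 in castrated basal cells. All basal arrays lay below all luminal arrays, and 1 intact basal array was below the 40th percentile of its signals. Glb1 differed by 3.19 ± 0.73, adjusted p = 0.00523 in intact and 2.25 ± 0.73, adjusted p = 0.0405 in castrated mice, and the castrated call was lost in 6 of 12 fits without 1 array (without intact luminal 1 or 2, castrated luminal 1 or 2, or castrated basal 1 or 2, adjusted p = 0.0527 to 0.156).

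The sialidase Neu1 was at 549.8, 1648 and 707 in intact and 415, 534 and 605 in castrated luminal cells, and 268, 443 and 50.8 in intact and 63.3, 90.0 and 105 in castrated basal cells. It was higher in luminal cells without overlap in both states (2.10 ± 0.64, adjusted p = 0.0293 intact, 2.39 ± 0.64, adjusted p = 0.0147 castrated). These calls were lost without intact luminal array 2 or intact basal array 3 (adjusted p = 0.142 and 0.130) in intact mice, and without castrated luminal array 2 or 3 (0.0548 and 0.0626) in castrated mice.

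Acid alpha-glucosidase (Gaa), which degrades glycogen, was at 1112, 1246 and 692 on intact luminal and 286, 349 and 480.0 on intact basal arrays, and passed in intact mice (1.40 ± 0.42, adjusted p = 0.0250). It lost that call without intact luminal array 1 or 2 or intact basal array 1 or 2 (adjusted p = 0.0569 to 0.0967), under quantile normalization (difference 0.47) and in its second probe set (0.58). In castrated mice its difference was 1.04 ± 0.42, adjusted p = 0.0950. Beta-glucuronidase (Gusb) was the reverse case, at 440.1, 675 and 389.7 on castrated luminal and 177, 25.7 and 135 on castrated basal arrays. It passed in castrated mice (2.24 ± 0.57, adjusted p = 0.0106), though not without castrated luminal array 2 (adjusted p = 0.0619), and its difference in intact mice was 1.16 ± 0.57, adjusted p = 0.178. Alpha-galactosidase A (Gla) ran from 515 to 979.6 over all arrays and did not pass in either state.

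Of the 5 lipid genes, 2 were higher in luminal cells in each state. Npc2, which carries cholesterol inside the lysosome, was at 18521, 16217 and 14638 in intact and 14390.4, 14668 and 11059 in castrated luminal cells, and 6395, 7964 and 12818 in intact and 7594, 8403 and 6627 in castrated basal cells. Luminal and basal arrays did not overlap within either state. It differed by 0.92 ± 0.22, adjusted p = 0.00748 in intact and 0.82 ± 0.22, adjusted p = 0.0153 in castrated mice. The castrated call was lost without castrated luminal array 1 or 2 or castrated basal array 3 (adjusted p = 0.0566 to 0.0715), and the mean of its probe sets gave 0.59 (adjusted p = 0.109) in intact and -0.16 in castrated mice.

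Ppt1, which removes fatty acyl groups from proteins, was at 3034, 3338 and 2786 on intact luminal and 1268, 952 and 932 on intact basal arrays, and at 2784, 2278 and 3036 and 979, 764 and 790.0 in castrated mice. Its brightest probe set differed by 1.53 ± 0.28, adjusted p = 9.78e-04 and 1.66 ± 0.28, adjusted p = 4.92e-04. Of its other probe sets, 3 ran the opposite way in each state, and the mean of all its probe sets gave -1.48 in intact mice, so its direction depends on the probe set. The saposin precursor Psap, acid ceramidase Asah1 and acid lipase Lipa did not pass, with intact differences of -0.05 ± 0.34, 0.59 ± 0.35 and -0.88 ± 0.57.

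Membrane proteins were split. Lamp1, an abundant glycoprotein of the lysosomal wall, gave signals of 14684, 14657 and 13494 in intact and 12899, 15418 and 11867 in castrated luminal cells, and 7890.2, 9617 and 6923 in intact and 6939, 8293 and 7278 in castrated basal cells. No luminal array came within the range of the basal arrays. Its difference was 0.82 ± 0.17, adjusted p = 0.00282 in intact and 0.83 ± 0.17, adjusted p = 0.00259 in castrated mice, nearly the same size in both states.

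Scarb2, which takes beta-glucocerebrosidase to the lysosome, was lower in luminal cells. Its signals were 3329, 3727 and 4473 in intact and 5040.1, 4683 and 5065 in castrated luminal cells, and 12509.8, 10883 and 8871 in intact and 10744, 10566 and 12178 in castrated basal cells. The lowest basal array lay above the highest luminal one. The difference was -1.48 ± 0.19, adjusted p = 4.06e-05 in intact and -1.17 ± 0.19, adjusted p = 3.52e-04 in castrated mice. A second probe set gave -1.14 in castrated but 0.25 in intact mice, so the intact direction rests on 1 probe set. Lamp2, which also serves the uptake of proteins by lysosomes, ran from 4175 to 7907 and the calcium channel Mcoln1 from 113 to 484. Neither passed (-0.34 ± 0.22, adjusted p = 0.316 and 0.27 ± 0.55, adjusted p = 0.790 in intact mice). All other probe sets of Lamp2 gave differences above 0 in both states. The largest were 1.18 in intact and 1.04 in castrated mice, so the direction of Lamp2 depends on the probe set.

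All 5 pump subunits had a difference above 0 in both states, with medians of 0.71 and 0.95. In intact mice 1 passed, Atp6v0d1, a subunit of the membrane sector, at 2508, 3333 and 2312 in intact and 2600.3, 2586 and 2611 in castrated luminal cells, and 1117, 1238 and 890.4 in intact and 1143, 1959 and 1672 in castrated basal cells. Its luminal and basal arrays did not overlap in either state, with a difference of 1.31 ± 0.29, adjusted p = 0.00416 in intact and 0.74 ± 0.29, adjusted p = 0.0916 in castrated mice. In castrated mice 3 passed. Atp6ap1, an accessory subunit, was at 1933, 1704 and 2056 on luminal and 915, 888 and 1134 on basal arrays (0.95 ± 0.29, adjusted p = 0.0282). Atp6v1b2, of the cytosolic sector's ATP-binding ring, was at 2799, 2482 and 3350.0 and 987, 1049 and 1804 (1.20 ± 0.37, adjusted p = 0.0290). Atp6v1h, also of the cytosolic sector, was at 1435, 1407 and 1432 and 601, 639 and 808 (1.06 ± 0.33, adjusted p = 0.0356). These groups did not overlap, but each of the 3 calls was lost without any 1 of the castrated luminal arrays or without castrated basal array 1 or 2 (adjusted p = 0.0598 to 0.117). Atp6v1a, the catalytic subunit, was at 3059 to 3784 on castrated luminal and 1483 to 2832 on castrated basal arrays and did not pass (0.73 ± 0.28, adjusted p = 0.0817).

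Of the 5 genes of the ATG8 family and its cargo receptor, 2 were higher and 1 lower in intact luminal cells, and 1 was higher in castrated ones. Sqstm1, the cargo receptor p62, was at 9271, 9315 and 13473 in intact and 11846, 12993 and 11207 in castrated luminal cells, and 4842, 5012 and 8129 in intact and 8156, 7049 and 6608 in castrated basal cells. It was higher on every luminal than on every basal array (0.85 ± 0.22, adjusted p = 0.0107 intact, 0.73 ± 0.22, adjusted p = 0.0274 castrated). Its second probe set had differences of 1.01 and 0.67 and did not pass (adjusted p = 0.0877 and 0.285), and the castrated call was lost without any 1 of the castrated luminal arrays or without castrated basal array 2 or 3 (0.0592 to 0.104).

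Gabarap, an ATG8-family protein, was at 7962, 8204 and 10912 in intact and 6887, 4899.8 and 5437 in castrated luminal cells, and 5117, 5085 and 5317 in intact and 6095, 6208 and 3814 in castrated basal cells. Intact luminal arrays lay above all the others. It passed in intact mice (0.79 ± 0.23, adjusted p = 0.0215), except without intact luminal array 3 or intact basal array 1 or 2 (adjusted p = 0.0522 to 0.0730), and not in castrated mice (0.12 ± 0.23, adjusted p = 0.781), where the groups overlapped. Map1lc3a, another ATG8-family gene, was the autophagy gene that was lower in luminal cells. Its signals were 4763, 4673 and 4872 in intact and 5741, 6758 and 8284 in castrated luminal cells, and 8335, 10188 and 7822 in intact and 7535, 7446 and 6381 in castrated basal cells. In intact mice the cell types did not overlap (-0.87 ± 0.19, adjusted p = 0.00427), and its second probe set gave -2.22; in castrated mice they overlapped (-0.05 ± 0.19, adjusted p = 0.890).

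Map1lc3b, an ATG8-family gene widely used to mark autophagosomes, ran from 8075 to 13345 on luminal and 7234 to 11511 on basal arrays and did not pass (0.34 ± 0.22, adjusted p = 0.325 in intact mice), nor did Gabarapl1 (0.25 ± 0.24, adjusted p = 0.527). Ulk1 and Becn1, which start the autophagosome, had overlapping groups in both states, and so did Atg7, the E1-like enzyme that activates ATG8-family proteins. Among these, Becn1 had an intact difference of 0.68 ± 0.30, adjusted p = 0.123. Atg5, part of the conjugation complex, had a castrated difference of 0.94 ± 0.53, adjusted p = 0.248, and Atg12, its partner, one of 0.92 ± 0.66, adjusted p = 0.373. Tfeb itself was dim and uneven, at 291, 99.9 and 267 in intact and 38.2, 139 and 32.0 in castrated luminal cells, and 82.2, 238 and 55.3 in intact and 179.7, 125 and 218 in castrated basal cells. Its groups overlapped in each comparison, and its differences were 0.83 ± 0.67, adjusted p = 0.437 in intact and -1.33 ± 0.67, adjusted p = 0.190 in castrated mice.

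Castration came with few calls. In luminal cells 1 of the 40 genes rose and 0 fell, where 5.86% of all genes tested passed, 2.90% rising and 2.96% falling. At an unadjusted p under 0.05 there were 5 of the 40, against 19.3% of all genes. The median log2 difference, castrated minus intact, was -0.06, and -0.09 over all genes. In basal cells 0 of 40 passed by limma, where 2.62% of all genes passed, 1.12% rising and 1.50% falling, and 5 of the 40 had an unadjusted p under 0.05, against 17.8% of all genes. The basal median was -0.04, and -0.11 over all genes. Centring each array on its median, which shifts the median of all genes to 0.12 in luminal and 0.19 in basal cells, put the medians of the 40 genes at 0.15 and 0.26. With that centring Ctsb, Ctsh and Ctsl passed as higher in castrated basal cells. These counts describe 3 arrays a group, and a gene that did not pass was not shown to be unaltered.

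**Figure D3:**
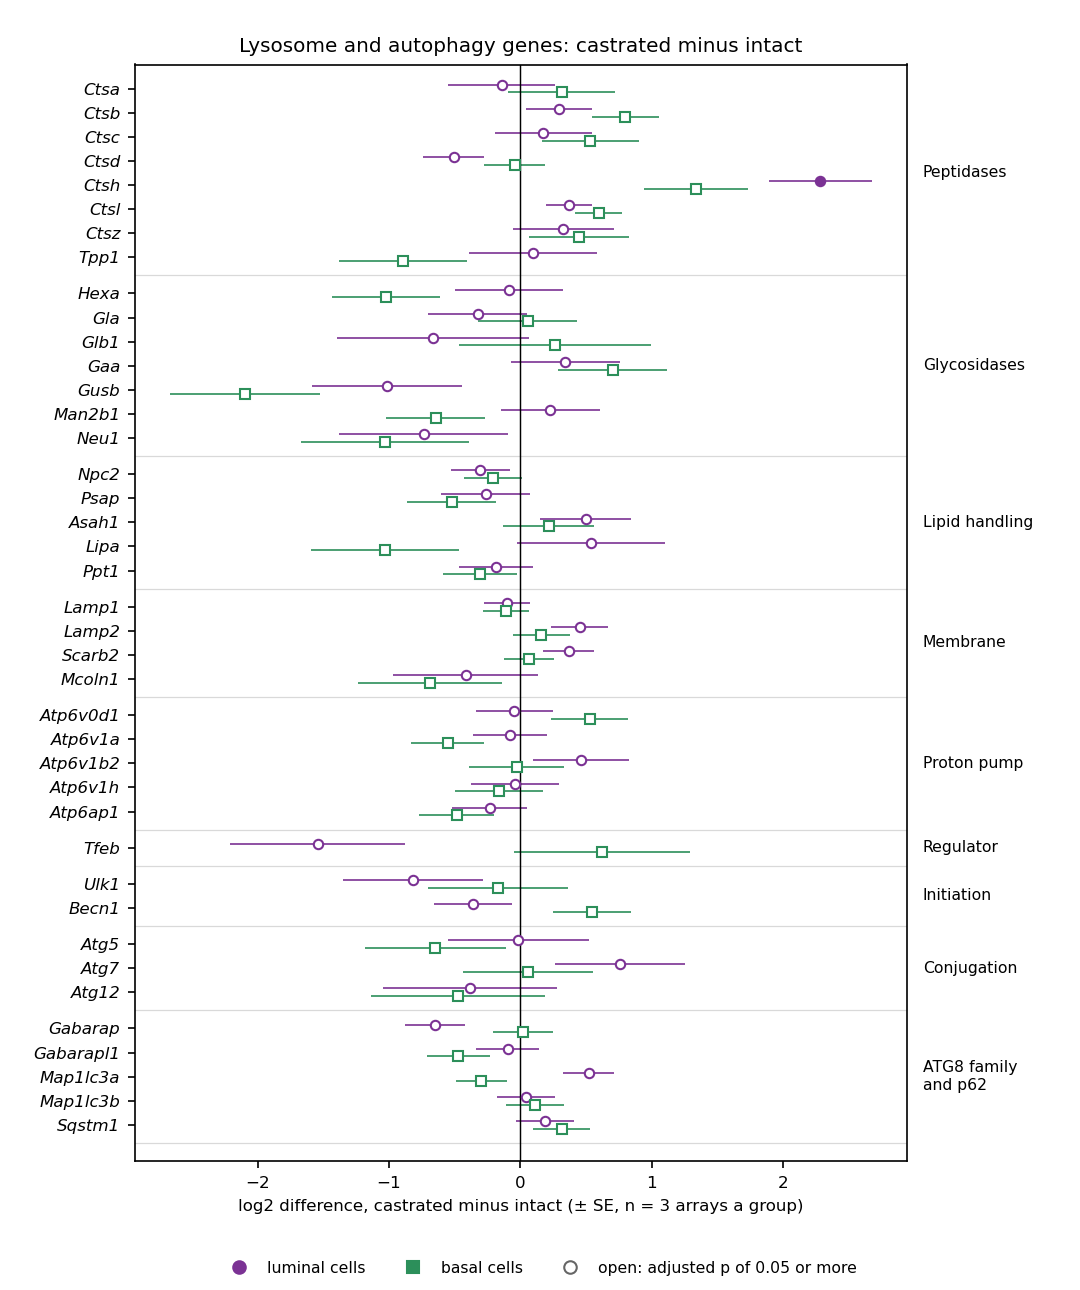
Castrated minus intact difference in log2(signal + 16) for each of the 40 genes, with circles for luminal and squares for basal cells, bars of ± 1 SE and open symbols where the adjusted p was 0.05 or more. The one filled symbol is Ctsh in luminal cells at 2.29, and most others lie within 1 of 0.

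Ctsh was the gene that rose in luminal cells, by 2.29 ± 0.39 (adjusted p = 0.00186), a fold of 4.88. The signals printed above put all 3 castrated luminal arrays between 5111 and 5586 and all intact ones at 1328 or less. Its second probe set gave 2.53. The call held under all 27 other settings tried, and leaving out 1 array at a time gave 2.11 to 2.43. In basal cells the Ctsh difference was 1.34 ± 0.39 (adjusted p = 0.0787), with every castrated array above every intact one, and the test of whether the response differed between cell types gave 0.95 ± 0.56 (adjusted p = 0.506). Ctsh is also made by macrophages. The summed signal of 12 myeloid genes (of 15 listed) was 1146 to 1505 on intact and 2029 to 4540 on castrated luminal arrays, and 1704 to 2460 on intact and 2958 to 5244 on castrated basal arrays. The luminal rise of that sum rested on Cd74. Without Cd74 the other 11 genes summed to 611 to 1318 on intact and 349 to 826 on castrated luminal arrays. On basal arrays they summed to 961 to 2063 in intact and 2064 to 2909 in castrated mice. In luminal cells Cd74, an antigen presentation gene, was at 534, 294 and 186 on intact and 2627, 4191 and 1203 on castrated arrays, without overlap (2.87 ± 0.85, adjusted p = 0.0564). The macrophage gene Aif1 was at 2.22, 3.67 and 8.00 and 26.6, 52.7 and 199, also without overlap (2.06 ± 0.73, adjusted p = 0.113), and under the 40th percentile on all 3 intact arrays. The pan-leukocyte gene Ptprc was at 32.9 to 57.1 on intact and 9.22 to 19.6 on castrated arrays, lower on each castrated array (-0.96 ± 0.65, adjusted p = 0.455) and under the 40th percentile on 2 intact and 3 castrated arrays. The intact and castrated luminal arrays of the other myeloid genes overlapped. Ctss, a further hydrolase typical of antigen-presenting cells, was at 67.1, 78.8 and 110.5 and 302, 223 and 364 in luminal cells, without overlap (1.62 ± 0.53, adjusted p = 0.0866). The part of such cells in the Ctsh values was not tested.

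Next to Ctsh in basal cells, Gusb, Ctsl and Ctsb had the lowest adjusted p without passing. Gusb was at 248, 496 and 685 on intact and 177, 25.7 and 135 on castrated arrays, without overlap (-2.10 ± 0.57, adjusted p = 0.0604), and the lowest of these was under the 40th percentile of its array. Ctsl was at 18066, 18752 and 21416 and 27576, 25703 and 35379, also without overlap (0.60 ± 0.18, adjusted p = 0.0803). Ctsb was at 4375, 3157 and 2087 and 5176, 5228 and 5678, again without overlap (0.80 ± 0.25, adjusted p = 0.100). In luminal cells the genes next to Ctsh were Gabarap (-0.65 ± 0.23, adjusted p = 0.110) and Map1lc3a (0.52 ± 0.19, adjusted p = 0.137), whose castrated and intact luminal arrays printed above did not overlap. Ctsd, whose luminal arrays did not overlap either, had -0.51 ± 0.23, adjusted p = 0.244. Tfeb had -1.55 ± 0.67, adjusted p = 0.211 with overlapping arrays. In all, 6 of the 40 genes had every castrated luminal array above every intact one and 3 had every one below, against 14.9% and 16.8% of all genes; in basal cells the numbers were 5 and 5, against 8.71% and 11.1%.

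For no gene among the 40 did the response to castration pass as different between the cell types. By limma's interaction test 0 of 40 passed, where 1.15% of all genes passed, 0.676% with a greater and 0.471% with a lower response in luminal cells, and 3 of the 40 had an unadjusted p under 0.05, against 12.7% of all genes. These were Map1lc3a (0.82 ± 0.27, adjusted p = 0.198), Tfeb (-2.17 ± 0.95, adjusted p = 0.349) and Becn1 (-0.91 ± 0.42, adjusted p = 0.378). For Map1lc3a, the mean of its 2 probe sets passed (adjusted p = 0.0421).

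The other genes of the pathway were counted the same way. Of 129 further genes listed by function 117 were tested, of which 21 were higher and 5 lower in intact luminal than basal cells, and 26 and 6 in castrated mice. These are 17.9% and 4.27% in intact and 22.2% and 5.13% in castrated mice, against the 11.0% and 8.45%, and 11.2% and 7.22%, of all genes. Without castrated luminal array 1, 2 or 3 the castrated calls of 32 became 19, 20 and 18. After castration 2 rose and 4 fell in luminal cells (3, 3 and 2 calls in place of 6 without intact luminal array 3 or castrated luminal array 2 or 3), and 2 rose and 1 fell in basal cells. These shares, 1.71% and 3.42% in luminal and 1.71% and 0.855% in basal cells, lie near the 2.90% and 2.96%, and 1.12% and 1.50%, of all genes. By limma's interaction test 0 of the 117 passed, with 13 (11.1%) at an unadjusted p under 0.05, against 12.7% of all genes. Of the pump, 9 of 17 further subunits and assembly factors (52.9%) were higher in intact and 8 (47.1%) in castrated luminal cells, and none was lower, where 11.0% and 11.2% of all genes were higher. The 8 became 4 without any 1 of the castrated luminal arrays or without castrated basal array 1 or 2, and 4 on median-centred arrays. Atp6v1c2, an isoform of a cytosolic-sector subunit, was at 2659, 2298 and 1517 in intact and 242, 254 and 235 in castrated luminal cells, and 175, 35.4 and 64.1 in intact and 31.9, 13.0 and 86.5 in castrated basal cells. It was higher in luminal cells (4.52 ± 0.61, adjusted p = 5.26e-05 intact, 2.31 ± 0.61, adjusted p = 0.0124 castrated), and it fell in luminal cells after castration (-3.03 ± 0.61, adjusted p = 0.00562), with no overlap. The castrated cell type call was lost without castrated basal array 2 (adjusted p = 0.0524). Atp6v0d2, the counterpart isoform of Atp6v0d1, was at 1878, 1901 and 2010.5 in intact and 624, 1011 and 598 in castrated luminal cells, and 216, 34.9 and 82.6 in intact and 71.6, 134 and 30.7 in castrated basal cells. Its luminal arrays lay above its basal arrays throughout (4.21 ± 0.58, adjusted p = 7.42e-05 intact, 3.12 ± 0.58, adjusted p = 0.00107 castrated). The accessory subunit Atp6ap2 fell in castrated luminal cells (-0.87 ± 0.20, adjusted p = 0.0153) from 27482, 29909.7 and 45176 to 18786, 18329 and 17517, a call that was lost without intact luminal array 3 or castrated luminal array 2 or 3 (adjusted p = 0.0554 to 0.0750) and on quantile-normalized or median-centred arrays.

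Among 15 further membrane and sorting genes, 3 were higher in luminal cells in each state, 2 fell in luminal cells after castration and 0 in basal cells. The share higher in luminal cells was 20.0% in each state, against 11.0% and 11.2% of all genes. The share that fell in luminal cells was 13.3%, against 2.96% of all genes. Of those that fell, Laptm4a (-0.74 ± 0.20, adjusted p = 0.0384), did not pass without intact luminal array 1 or 3 or any 1 of the castrated luminal arrays (adjusted p = 0.0769 to 0.157). Sortilin (Sort1), a receptor that carries proteins from the Golgi to lysosomes, was at 18025, 21676 and 26974 in intact and 6857, 6907 and 4243 in castrated luminal cells, and 3059, 2765 and 3612 in intact and 1557, 2377 and 2066 in castrated basal cells. It was higher in luminal cells in both states (2.80 ± 0.25, adjusted p = 7.55e-07 intact, 1.56 ± 0.25, adjusted p = 2.69e-04 castrated), and it fell by 1.90 ± 0.25 in luminal cells (adjusted p = 1.83e-04); the groups did not overlap. The cystine exporter Ctns was higher in intact luminal cells (3.76 ± 0.74, adjusted p = 0.00168). Among 23 further hydrolases, 3 were higher and 1 lower in intact luminal cells and 5 and 2 in castrated ones. The intact shares of 13.0% and 4.35% compare with 11.0% and 8.45% of all genes, so the higher share is near that of all genes. The castrated shares were 21.7% and 8.70%, against 11.2% and 7.22%. The 4 intact calls became 2 without intact luminal array 2, and the 7 castrated calls became 4 without any 1 of the castrated luminal arrays. The serine carboxypeptidase Scpep1 was at 230.2, 131 and 681 in intact and 175, 126 and 176 in castrated luminal cells, and 18831, 19851 and 28193 in intact and 10691, 11363 and 10249.9 in castrated basal cells, with basal arrays far above luminal arrays (-6.23 ± 0.42, adjusted p = 5.33e-08 intact, -5.96 ± 0.42, adjusted p = 8.99e-08 castrated). Alpha-fucosidase (Fuca1) was at 4662 to 8394 on luminal and 755 to 1659.6 on basal arrays (2.75 ± 0.29, adjusted p = 5.07e-06 in intact mice).

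Of the 23 further hydrolases, 1 rose after castration in luminal cells and 1 in basal cells, and 0 fell in either. Each is 4.35% of the list, against 2.90% of all genes rising in luminal and 1.12% in basal cells. Beta-mannosidase (Manba) rose in luminal cells from 579, 436 and 124 to 2264, 1853 and 3101 (2.82 ± 0.73, adjusted p = 0.0284), without overlap, but not without intact luminal array 3 or any 1 of the castrated luminal arrays (adjusted p = 0.0781 to 0.140). Cathepsin S (Ctss), typical of antigen-presenting cells, rose in basal cells from 132, 104 and 39.0 to 786, 1196 and 1303 (3.45 ± 0.53, adjusted p = 0.00237). Of the 12 myeloid genes, 1 passed as higher in castrated basal cells, the macrophage gene Lyz2 (2.40 ± 0.59, adjusted p = 0.0398), and 0 as lower. The basal difference was above 0 for 9 of the 12 and below 0 for 3. Among those below, Cd68 was at 1483, 1168 and 499 on intact and 395, 1078 and 361 on castrated basal arrays. The myeloid sum was as given above, and the part of such cells was not tested.

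Of 22 genes of lysosomal and mTORC1 regulation, 1 was higher and 3 lower in intact luminal cells, and 2 and 3 in castrated ones, where the 5 calls became 3 without any 1 of the castrated luminal arrays or castrated basal array 1. The intact shares were 4.55% and 13.6%, against 11.0% and 8.45% of all genes. The castrated shares were 9.09% and 13.6%, against 11.2% and 7.22%. Rragd, a GTPase that recruits mTORC1 to lysosomes, was at 2617, 2509.9 and 1927 in intact and 1788, 1948 and 1616 in castrated luminal cells, and 97.5, 166 and 132 in intact and 422, 89.2 and 12.3 in castrated basal cells. Every luminal array lay above every basal array (4.02 ± 0.68, adjusted p = 4.67e-04 intact, 4.04 ± 0.68, adjusted p = 4.38e-04 castrated). The mTORC1 inhibitor Ddit4 was lower in luminal cells in both states (-1.20 ± 0.20, adjusted p = 4.17e-04 and -1.88 ± 0.20, adjusted p = 4.85e-06). Foxo3, a transcription factor of autophagy genes, fell in basal cells after castration from 7698, 5571 and 9269.8 to 2632, 3236 and 1910.0 (-1.53 ± 0.29, adjusted p = 0.0108), without overlap. It did not pass without the trend of variance on signal in the fit or without all arrays numbered 3. Of 40 further autophagy genes, 5 were higher and 1 lower in intact luminal cells and 8 and 1 in castrated ones. The castrated share higher was 20.0%, against 11.2% of all genes. In each state 2.50% were lower, against 8.45% and 7.22% of all genes. The intact share of 12.5% higher is near the 11.0% of all genes, and the 6 intact calls became 2 without intact luminal array 1 or 2 or intact basal array 1, and 3 without intact basal array 3. The 9 castrated calls became 4 without castrated luminal array 3. Atg13, of the ULK1 complex, was among them in both states (2.91 ± 0.69, adjusted p = 0.00652 and 2.94 ± 0.69, adjusted p = 0.00618), and Vps41, a tethering factor, in castrated mice (2.68 ± 0.52, adjusted p = 0.00156). Atg3, the E2-like enzyme of ATG8 conjugation, was at 3819.8, 3513 and 2774 in intact and 6731, 7074 and 7314 in castrated luminal cells, and 3320.2, 3659 and 2593 in intact and 5830.1, 7336 and 4951 in castrated basal cells. It rose after castration in luminal cells (1.07 ± 0.23, adjusted p = 0.00822) and in basal cells (0.91 ± 0.23, adjusted p = 0.0407), with no overlap in either. The luminal call was lost without castrated luminal array 3 (adjusted p = 0.0505), the basal call without any 1 of the intact basal or castrated luminal arrays, intact luminal array 2 or castrated basal array 1 or 2 (0.0543 to 0.133), and both in its second probe set.

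**Figure D4:**
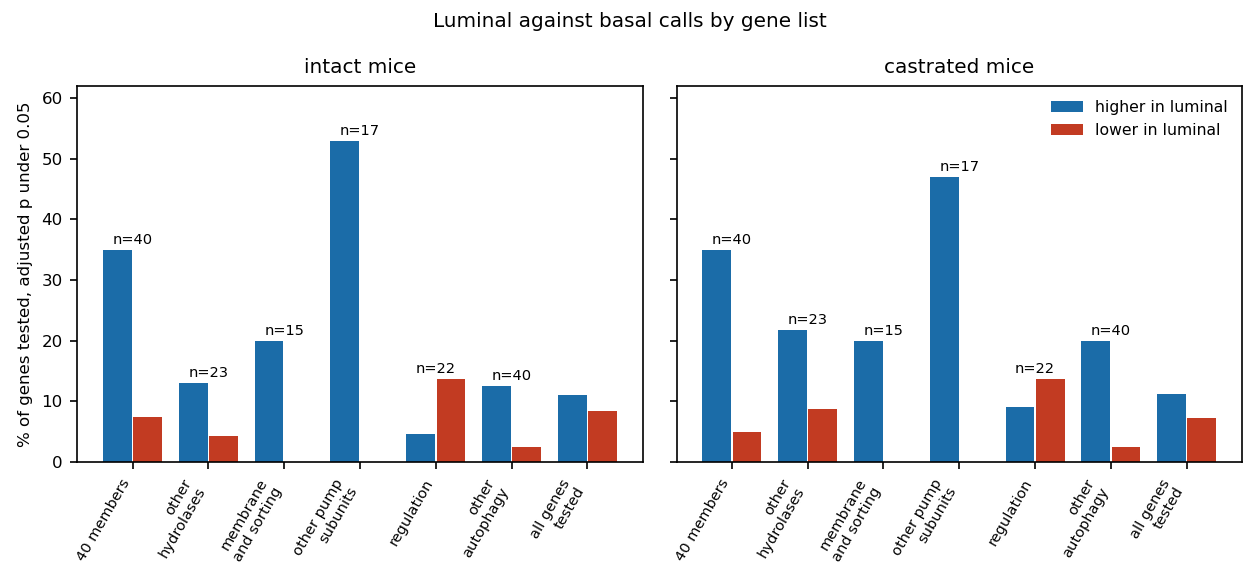
Percent of genes that were higher or lower in luminal than basal cells at an adjusted p under 0.05, in intact and castrated mice, for the 40 genes, for 5 further lists of the pathway (23 hydrolases, 15 membrane and sorting genes, 17 pump genes, 22 regulators and 40 autophagy genes) and for all 14645 genes tested. The 40 genes reach 35.0% higher in each state, where all genes reach 11.0% and 11.2%.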

How the data were processed

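RNA of sorted cells was extracted with a column kit, amplified and hybridised to Affymetrix arrays, per the labels' protocols. The deposited values are signal intensity per probe set on a linear scale, made by the authors with MAS5 per the submitters' processing notes (version not given in the sources used here); each array's 2% trimmed mean is near the same target, so arrays were not normalized again. Of 45101 probe sets, 64 controls and those with no gene symbol (9160) or several (932) were left out. Log2(signal + 16) was taken, probe sets had to exceed the 40th percentile of the array on 3 arrays or more, and each gene was read from its brightest remaining probe set. The 4 group means were fitted with limma 3.58.1 in R 4.3.3 on all 12 arrays (eBayes with trend, Benjamini-Hochberg adjustment over 14645 genes); the script was tested on simulated data. The number of arrays limits the precision. P-values measure the spread between the 3 sets of mice. Same-numbered arrays of different groups deviated together with a correlation of -0.00723 to 0.0258, so numbers were not used as pairs.

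Every gene that passed was named; of further genes, those with the lowest adjusted p in a list and contrast, up to 4. The genes and lists were chosen with earlier results of these data known. Promoter sequences are RefSeq's, build GRCm38.p6, matched by symbol.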

Additional observations from a re-analysis of the deposited data

How the results depend on the processing

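The 40 genes were recounted under 27 other settings for each comparison, 2 of them chosen after seeing the data (without the 2 arrays of lowest weight, and without all arrays numbered 3). In luminal cells, the 1 gene that passed after castration became 3 when probe sets were averaged per gene (Ctsl and Map1lc3a added, higher) and 3 with its second probe set (Ctsl added, higher, and Sqstm1 at -1.64, opposite in sign to its main value). In basal cells, 0 became 3 with median centring, 2 with the mean of probe sets, 2 with the second probe set and 0 to 2 with 1 array left out (2 without intact basal array 1). In intact mice, 17 calls between cell types became 11 without the intensity trend and 13 to 18 with 1 array left out. In castrated mice, 16 became 9 with median centring, 10 without the trend and 7 to 17 with 1 array left out. The interaction went from 0 to 1 (Map1lc3a) with the mean of probe sets and stayed at 0 with 1 array left out. Among differences that passed, the sign changed with the second probe set for Man2b1 (-0.040 intact, -1.14 castrated), Scarb2 (0.25 intact), Pla2g15 (-0.98 intact), Wipi2 (0.047 intact), Sgsh (-0.23 castrated) and Foxo3 (0.33 castrated), and with the mean of probe sets for Ppt1 (-1.48 intact) and Npc2 (-0.16 castrated). Differences that did not pass also changed sign between a gene's brightest and next brightest probe set, as for Gabarapl1 (0.25 and -0.34), Lamp2 (-0.34 and 0.18) and Ctsb (0.38 and -0.09) in intact mice. The cause of these changes was not tested. Of the calls, 1 of 1 (luminal castration), 5 of 17 (intact) and 4 of 16 (castrated) were kept under every setting. With the replicate number as a block, fixed or random, the counts were 1, 0, 17, 16 and 0 in the order above, so a block on that number changed no count. Whether the numbers mark the sets of mice is not stated in the sources used here, so an effect of the true pairing was not tested. Fitting only the groups compared was not run for the interaction, which needs all 4.

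Glb1, Gusb and Tfeb each had an array under the 40th percentile of signal. The number of arrays, 3 a group, limits what can be detected.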
